A study of Saccharomyces cerevisiae with 21 samples.

Results

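The cap-binding complex eIF4F, its partners and 2 subunits of eIF3 were followed as ribosome-protected mRNA through glucose starvation of budding yeast. The members are 10 genes listed by their function: CDC33, TIF4631, TIF4632, TIF1, TIF2, TIF3, DED1, PAB1, RPG1 and NIP1. All 10 had reads in every library, out of 5767 genes listed in any of them. The rule that lists them uses names, not measured values.

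All cells were of strain BY4741, a haploid of mating type a that lacks HIS3, LEU2, MET15 and URA3 function (MATa his3Δ1 leu2Δ0 met15Δ0 ura3Δ0). A first experiment gave cells the elongation inhibitor cycloheximide (CHX) shortly before harvest and compared 2 libraries from 15 min without glucose with 2 libraries from log phase. A time course without that pretreatment held 2 libraries each at log phase and at 1, 5 and 15 min of starvation, 1 each at 10, 20 and 30 min, and 1 further 15 min library of matched cells given CHX first. In both, cells grew in synthetic complete medium with glucose, and a portion was moved to the same medium without glucose. A multi-day series in the rich medium YPD had 1 library each from log phase, 1 day (postdiauxic) and 5 days (stationary).

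Translation of most eukaryotic mRNAs begins at the cap. The cap is bound by eIF4E, which holds the scaffold eIF4G, and eIF4G in turn brings the RNA helicase eIF4A. The assembly of these proteins is eIF4F. eIF4B stimulates eIF4A, and Ded1 is a second helicase of the same DEAD-box family that helps ribosomes scan structured leaders. The poly(A)-binding protein Pab1 binds the mRNA tail and contacts eIF4G, while eIF3 binds the small ribosomal subunit and helps bring it to the mRNA. In yeast, eIF4E is encoded by CDC33, eIF4G by TIF4631 and TIF4632, eIF4A by TIF1 and TIF2, eIF4B by TIF3, and the a and c subunits of eIF3 by RPG1 and NIP1.

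The sequences of the eIF4A genes come first because they decide what a read can say about either copy. TIF1 (YKR059W) lies at chrXI:554987-556174 on the plus strand and TIF2 (YJL138C) at chrX:153504-154691 on the minus strand, in build R64 of the genome. Each is a single coding exon of 1188 bases and encodes the same protein of 395 residues. The copies differ at 6 positions, counted from 1 at the A of the start codon and written with the TIF1 base first: T60C, C225T, T228C, C873T, C1170T and T1176C. All 6 are synonymous, and the genes are 99.5% identical. The stretches that hold them are printed from RefSeq (R64), 5′ to 3′ along the gene, with the differing bases in capitals.
TIF1, chrXI:555017-555076, plus strand: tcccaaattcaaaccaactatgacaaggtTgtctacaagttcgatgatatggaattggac
TIF2, chrX:154602-154661, minus strand: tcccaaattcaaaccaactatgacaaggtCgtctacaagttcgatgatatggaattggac
TIF1, chrXI:555183-555242, plus strand: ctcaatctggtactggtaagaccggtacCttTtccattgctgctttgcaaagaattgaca
TIF2, chrX:154436-154495, minus strand: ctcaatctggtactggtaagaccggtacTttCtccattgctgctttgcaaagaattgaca
TIF1, chrXI:555830-555889, plus strand: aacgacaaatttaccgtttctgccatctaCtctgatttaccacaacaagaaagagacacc
TIF2, chrX:153789-153848, minus strand: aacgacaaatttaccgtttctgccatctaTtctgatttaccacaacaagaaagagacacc
TIF1, chrXI:556130-556174, plus strand: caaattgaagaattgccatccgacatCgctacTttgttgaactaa
TIF2, chrX:153504-153548, minus strand: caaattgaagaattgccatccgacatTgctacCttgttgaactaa

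A read of 28 bases, the size class selected for the pretreated libraries, can be placed in 1 copy only where it covers such a base. Of 1161 windows of that length in each copy, 106 (9.13%) occur once in the genome. The other 8 members had few or no shared windows: 6.54% in TIF3 (YPR163C, chrXVI:868645-869955, minus strand) and none in CDC33, TIF4631, TIF4632, DED1, PAB1, RPG1 and NIP1.

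The paralogous eIF4G genes can be told apart. TIF4631 (YGR162W) lies at chrVII:824059-826917 on the plus strand and TIF4632 (YGL049C) at chrVII:406860-409604 on the minus strand, each as 1 coding exon. Their proteins of 952 and 914 residues are 56.0% identical where they align. Both carry a tyrosine, any 4 residues and 2 leucines, the letters of the motif by which eIF4G proteins bind eIF4E. That pattern was searched in the translated strand only and also occurs in 13.1% of all coding sequences. The stretch around it is shown from RefSeq (R64), with the codons of the tyrosine and leucines in capitals, because the leucine codons differ in base while their residues do not.
TIF4631, chrVII:825406-825438, plus strand: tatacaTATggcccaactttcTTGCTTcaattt
TIF4632, chrVII:408312-408344, minus strand: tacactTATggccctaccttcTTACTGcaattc

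The remaining members are single coding exons too. CDC33 (YOL139C) lies at chrXV:60383-61024 on the minus strand, and its protein of 213 residues is the shortest of the group. DED1 (YOR204W) is at chrXV:722911-724725 on the plus strand, and its protein is 32.7% identical to eIF4A where they align. PAB1 (YER165W) is at chrV:510373-512106 on the plus strand. RPG1 (YBR079C) is at chrII:395383-398277 and NIP1 (YMR309C) at chrXIII:892988-895426, both on the minus strand.

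Depth differed widely between libraries. The pretreated libraries held 1862525 to 5170260 gene reads, and 1 of them, the second 15 min library, was made without rRNA depletion. In the time course, 5 deep libraries (the first replicates at log phase, 1, 5 and 15 min, and the matched one) held 3523240 to 7896332 reads and the other 7 held 71816 to 135958. The YPD libraries held 652361, 575896 and 169545 reads at log phase, 1 day and 5 days. The 4 mating type a markers (STE2, MFA1, MFA2, BAR1) had reads in all 19 libraries, with summed levels of 144 to 1609 reads per 1000000 gene reads, or CPM, against 0 to 24.5 CPM for the 3 type alpha markers. Reads of the deleted LEU2, MET17 (MET15) and URA3 summed to 0 to 20.4 CPM, while HIS3, of which his3Δ1 removes only a part, had reads in all 19 libraries at 11.8 to 128 CPM. The 4 starvation markers HSP30, HSP26, HSP12 and HXT7 summed to 1172 to 1400 CPM in pretreated 15 min libraries against 40.2 to 45.8 CPM in pretreated log libraries, and to 249 to 312 CPM at 15 min against 180 to 214 CPM in log phase in the time course. The labels do not say that replicates came from separate cultures, so p-values may measure only the spread between libraries.

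Levels are given as CPM of a library's gene reads, so that fewer ribosomes on one mRNA and more on others cannot be told apart, nor can fewer cells and less RNA per cell. Levels of different genes were compared only as TPM, the same unit after division by coding length. The 10 members together took 0.818% and 0.790% of gene reads in pretreated 15 min libraries, against 0.898% and 0.839% in pretreated log libraries. In the 12 time course libraries the share ran between 0.710% and 0.817%.

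In pretreated log phase, PAB1 stood highest among the 8 members other than the eIF4A genes, with 1234 ± 78.6 TPM (SD, n = 2 here and in the next sentence). CDC33 followed with 845 ± 50.7 TPM, DED1 with 719 ± 88.3, TIF3 with 570 ± 74.8, TIF4631 with 344 ± 65.9, RPG1 with 268 ± 3.85, NIP1 with 183 ± 33.7 and TIF4632 with 60.1 ± 1.76 TPM. No neighbours in that order overlapped between the libraries. In log phase of the time course PAB1 again led with 782 ± 72.3 TPM and TIF4632 was again lowest with 32.6 ± 2.50 TPM (SD, n = 2). There, DED1 (558 ± 92.3 TPM) overlapped CDC33 (475 ± 42.7 TPM), and NIP1 (210 ± 71.1 TPM) overlapped RPG1 (205 ± 24.8 TPM). The major eIF4G gene thus stood above the minor one in each of these libraries. TIF4631 had 390 and 297 TPM against 58.9 and 61.4 TPM for TIF4632 in pretreated log phase.

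The eIF4A copies differed most between the experiments. TIF1 and TIF2 summed took 0.0202% and 0.0316% of gene reads in pretreated 15 min libraries, against 0.0481% and 0.0548% in pretreated log libraries. In the time course their share was 0.202% to 0.289%, and in YPD it was 0.0417% at log phase, 0.0177% at 1 day and 0.0142% at 5 days. The ranges of the time course and of the other libraries did not overlap. TIF1 made up 34.2% and 37.2% of the summed eIF4A reads in pretreated 15 min libraries and 45.8% and 34.2% in pretreated log libraries, but 57.2% to 69.6% in the time course. In YPD that share was 44.1% at log phase (exact 95% binomial interval 38.1 to 50.2), 10.8% at 1 day (5.51 to 18.5) and 29.2% at 5 days (12.6 to 51.1). Intervals here and below cover counting error only. The multi-day and time course libraries are described with the same preparation and read processing, the pretreated ones with processing described elsewhere, and how reads with several matches were treated for each experiment was not tested. The level and the position score of each copy were therefore compared only within an experiment.

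**Figure D1:**
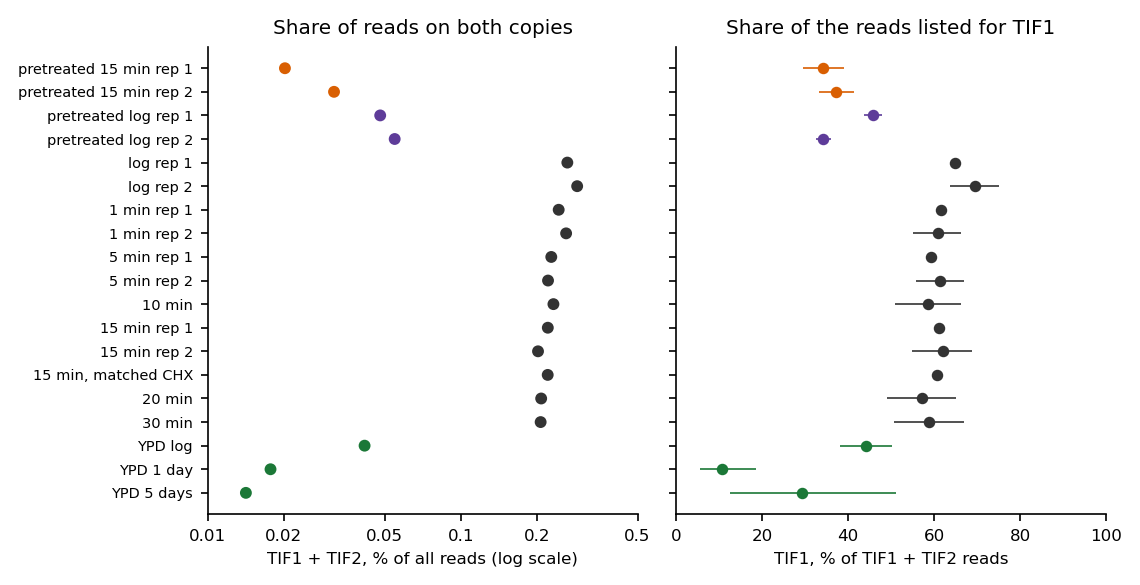
Share of all gene reads taken by TIF1 and TIF2 summed (percent) and TIF1 as a percent of the summed reads, by library, with exact 95% binomial intervals for the latter share. The 12 time course libraries sit between 0.202% and 0.289% of reads, above all pretreated and YPD libraries, and hold the highest TIF1 percentages.

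The first comparison asked which initiation factor mRNAs changed in ribosome-protected reads after 15 min of starvation in pretreated cells. The eIF4E gene, TIF1 and the eIF4A copies summed fell, while eIF4G, Ded1, Pab1, eIF4B and eIF3 did not pass the test in either direction. CDC33 had 279 and 257 CPM at 15 min, against 659 and 589 CPM in log phase. TIF1 had 69.0 and 118 CPM at 15 min, against 220 and 188 CPM in log phase. TIF2 had 133 and 198 CPM at 15 min, against 261 and 361 CPM in log phase. For each of these 3 genes both starved libraries lay below both log libraries. How many of all genes separate in this way was not counted, here or for the overlaps below.

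In edgeR's quasi-likelihood test over 5090 genes, CDC33 fell by 1.21 on the log2 scale (SE 0.30, adjusted p = 0.0484) and TIF1 fell by 1.17 (SE 0.28, adjusted p = 0.0419). TIF2 had a log2 fold change of -0.92 (SE 0.24) and missed the threshold of 0.05 with an adjusted p of 0.0544 in edgeR. With the replicate number as a block, which sets each starved library against the log library of the same number, it passed (-0.91, SE 0.18, adjusted p = 0.0142, edgeR). Because the copies share most of their sequence, their sum is the firmer measure of eIF4A. It stood at 202 and 316 CPM at 15 min, against 481 and 548 CPM in log phase, and fell by 1.01 on the log2 scale (SE 0.26, adjusted p = 0.0497, edgeR). So edgeR called 2 of 10 members lower, or 3 with the block, and none higher. DESeq2 without a block called 3 lower and none higher, beside 6.17% of all genes lower and 7.74% higher. Over all genes, edgeR called 4.93% lower and 7.72% higher, and 14.8% lower and 16.5% higher with the block. The median log2 change was -0.20 over the members and -0.00 over all genes tested.

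These calls rested on few libraries. Without the first log library the CDC33 change was -1.0 (adjusted p = 0.195) and without the second 15 min library, the one made without rRNA depletion, it was -0.98 (adjusted p = 0.175, edgeR). TIF1 lost its call without the first log (adjusted p = 0.140), the first 15 min (0.10) or the second 15 min library (0.0869, edgeR).

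No other member passed. DED1 had 2318 and 1998 CPM at 15 min, against 1653 and 1352 CPM in log phase, without overlap (log2 0.53, SE 0.37, adjusted p = 0.356, edgeR). PAB1 had 1783 and 1494 CPM at 15 min, against 2382 and 2538 CPM in log phase, also without overlap (log2 -0.56, SE 0.36, adjusted p = 0.314, edgeR). The minor eIF4G gene TIF4632 had 268 and 287 CPM at 15 min, against 188 and 191 CPM in log phase (log2 0.55, SE 0.24, adjusted p = 0.164, edgeR). The eIF3 genes were the flattest. RPG1 had 755 and 871 CPM at 15 min against 913 and 871 CPM in log phase, and NIP1 381 and 662 CPM against 452 and 572 CPM. TIF3 and TIF4631 had log2 changes of -0.27 (SE 0.39) and 0.30 (SE 0.35), with adjusted p of 0.66 and 0.586 in edgeR.

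**Figure D2:**
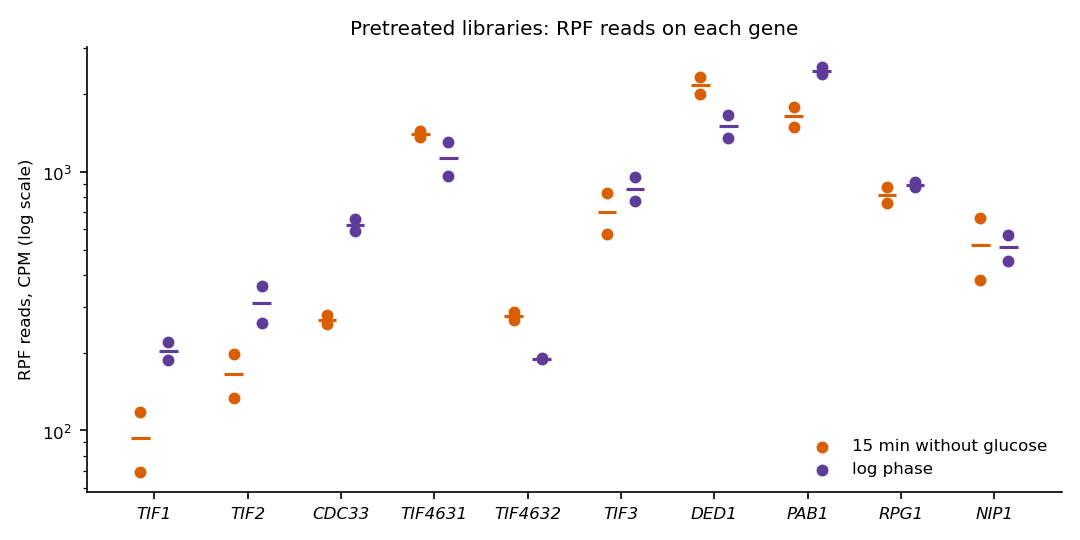
Ribosome-protected reads of each member in pretreated cells, in CPM on a log axis, with 15 min of starvation left of log phase for each gene, a point per library and a bar at the mean. CDC33 at 15 min lies at 257 and 279 CPM, below its log libraries at 589 and 659 CPM, and TIF1 and TIF2 also do not overlap between groups.

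The second measure is the polarity score, which says where along a gene the reads lie, with -1 for all reads at the 5′ end and 1 for all at the 3′ end. In pretreated cells the reads of 7 of the 10 members moved toward the 3′ end after 15 min without glucose, as did those of 41.5% of all genes tested. The eIF3 genes shifted most. RPG1 scored 0.268 and 0.169 at 15 min, against -0.108 and -0.207 in log phase. NIP1 scored 0.111 and 0.196 at 15 min, against -0.244 and -0.138 in log phase. PAB1 scored 0.162 and 0.226 at 15 min, against -0.0846 and -0.0879 in log phase. In all 3 the sign of the score differed between every starved and every log library.

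In limma over 3979 genes, the scores rose by 0.38 for RPG1 (SE 0.06, adjusted p = 0.0117), 0.34 for NIP1 (SE 0.06, adjusted p = 0.0117) and 0.28 for PAB1 (SE 0.05, adjusted p = 0.0119). TIF3 rose by 0.26, TIF4632 by 0.25, TIF2 by 0.25 and TIF4631 by 0.19, with adjusted p of 0.0150, 0.0147, 0.0456 and 0.0304 in limma. Both eIF4G genes are thus among the 7. CDC33 scored 0.00209 and 0.103 at 15 min, against -0.159 and -0.0716 in log phase, a difference of 0.17 (SE 0.06) that passed only with the replicate block (adjusted p = 0.0577 without and 0.00454 with it, limma). DED1 scored -0.00992 and 0.108 at 15 min, against -0.0382 and -0.0348 in log phase, and did not pass (0.09, adjusted p = 0.256, limma). TIF1 alone had a negative difference, with -0.288 and -0.344 at 15 min against -0.262 and -0.251 in log phase (-0.06, adjusted p = 0.402, limma). The score of the summed copies was 0.0737 and 0.142 at 15 min, against -0.116 and 0.0374 in log phase, and passed only with the block (0.15, adjusted p = 0.106 without and 0.0145 with it, limma).

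This shift was shared by the genome. Of all genes, 41.5% rose, or 56.1% with the block, where 8 of the 10 members rose. All 10 members were among the 2048 genes with over 100 reads in every library. Of those genes 59.5% rose without the block, with a median change of 0.21, and 7 members were called. The median gene of a library scored 0.0582 and 0.0382 at 15 min, against -0.146 in both log libraries. The median change was 0.25 over the members and 0.18 over all genes tested. Once each library's median was subtracted, limma called 0 of 10 members and 0 of 3979 genes, with 3 members and 653 genes at an unadjusted p under 0.05. With either log library left out, limma called no member, with adjusted p of 0.111 or more.

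**Figure D3:**
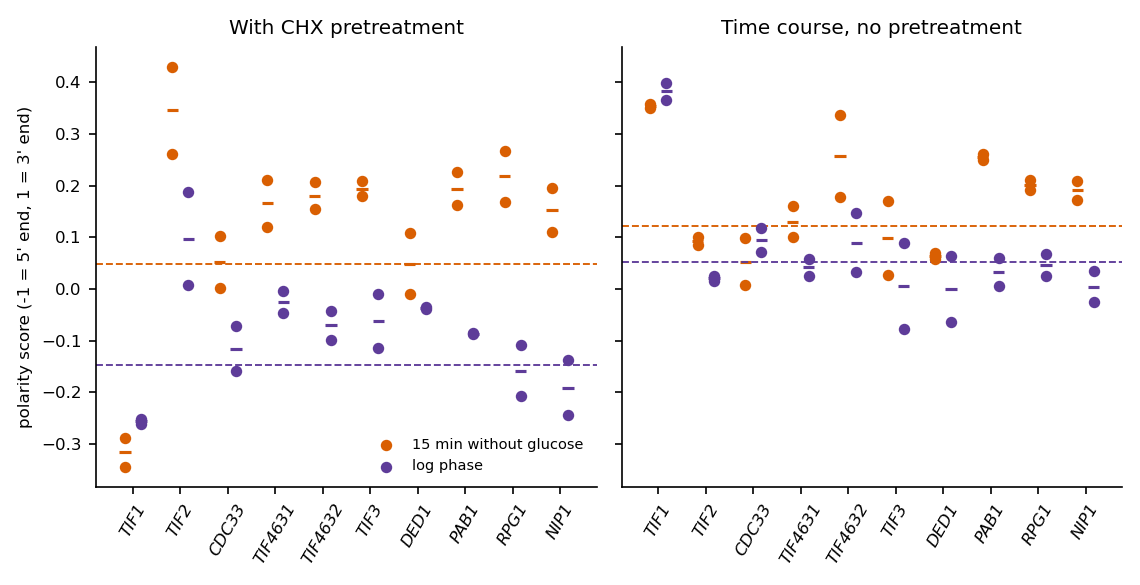
Polarity score of each member at 15 min of starvation (left of each pair) and in log phase, in pretreated cells and in the time course, with a point per library and a dashed line at the mean of the libraries' median genes. In pretreated cells RPG1, NIP1 and PAB1 lie above 0 at 15 min and below 0 in log phase, and in the time course TIF1 lies above every other member in log phase.

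Without pretreatment, the time course compared 1, 5 and 15 min of starvation with log phase. CDC33 was flat, with 349 and 285 CPM in log phase, 324 and 466 CPM at 1 min, 310 and 265 CPM at 5 min and 341 and 311 CPM at 15 min. DED1 had 961 and 1131 CPM in log phase, 1218 and 1162 CPM at 1 min, 1372 and 1397 CPM at 5 min and 1486 and 1379 CPM at 15 min. TIF1 had 1710 and 2009 CPM in log phase, 1505 and 1587 CPM at 1 min, 1351 and 1361 CPM at 5 min and 1350 and 1254 CPM at 15 min. At each of the 3 times DED1 lay above and TIF1 below both log libraries. The share of all genes that did so was not counted.

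Fitted without a block, edgeR called 0 members at any of these times, and over 5255 genes it called 0 (0%) at 1 min, 0 (0%) at 5 min and 8 (0.152%) at 15 min. At an unadjusted p under 0.05 stood 0, 2 and 2 members and 132, 225 and 236 genes, the members being DED1 and TIF1 both times. DESeq2 called 22, 59 and 48 genes, all of them lower, and 0 members. It gave no adjusted p for 4688, 4688 and 5246 of its 5757 genes. With the replicate block, DED1 rose at 5 min (log2 0.47, SE 0.13, adjusted p = 0.00686) and at 15 min (0.57, SE 0.13, adjusted p = 0.000366) in edgeR, where 0.476% and 1.66% of genes rose. TIF1 fell by 0.41 on the log2 scale at both 5 min (SE 0.12, adjusted p = 0.0244) and 15 min (SE 0.12, adjusted p = 0.0191) in edgeR, where 3.98% and 3.88% of genes fell. At 1 min the block gave 0 members and 3.04% of genes, with 2 members and 451 of 5255 genes at an unadjusted p under 0.05.

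The summed copies passed in no fit. TIF1 and TIF2 together had 2639 and 2886 CPM in log phase, 2439 and 2610 CPM at 1 min, 2281 and 2214 CPM at 5 min and 2210 and 2021 CPM at 15 min. At 15 min the blocked log2 change of the sum was -0.32 (SE 0.12, adjusted p = 0.105, edgeR). All second replicates were shallow, so the number also marks depth. The sequencing pool is another possible block, and among the replicated times it crosses the numbers at 15 min only. With it edgeR called 0 members and 0 genes at all 3 times, and at 15 min DED1 stood at 0.47 and TIF1 at -0.50, with an adjusted p of 1.0 and 0.98.

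Among the other members, TIF4631 had 454 and 444 CPM in log phase, 554 and 679 CPM at 1 min, 556 and 530 CPM at 5 min and 590 and 466 CPM at 15 min, all above the log libraries. It passed in no fit (blocked log2 0.38 at 1 min, adjusted p = 0.188, edgeR). PAB1, TIF3, RPG1 and NIP1 overlapped log phase at 15 min, and TIF4632 lay above it, with 118 and 114 CPM against 101 and 84.6 CPM. Its second values rest on 11 and 8 reads, with overlapping 95% counting intervals of 56.9 to 204 CPM and 36.5 to 167 CPM. The members' median log2 changes were 0.15, 0.11 and 0.04 at 1, 5 and 15 min, beside 0.01, -0.00 and 0.01 over all genes.

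**Figure D4:**
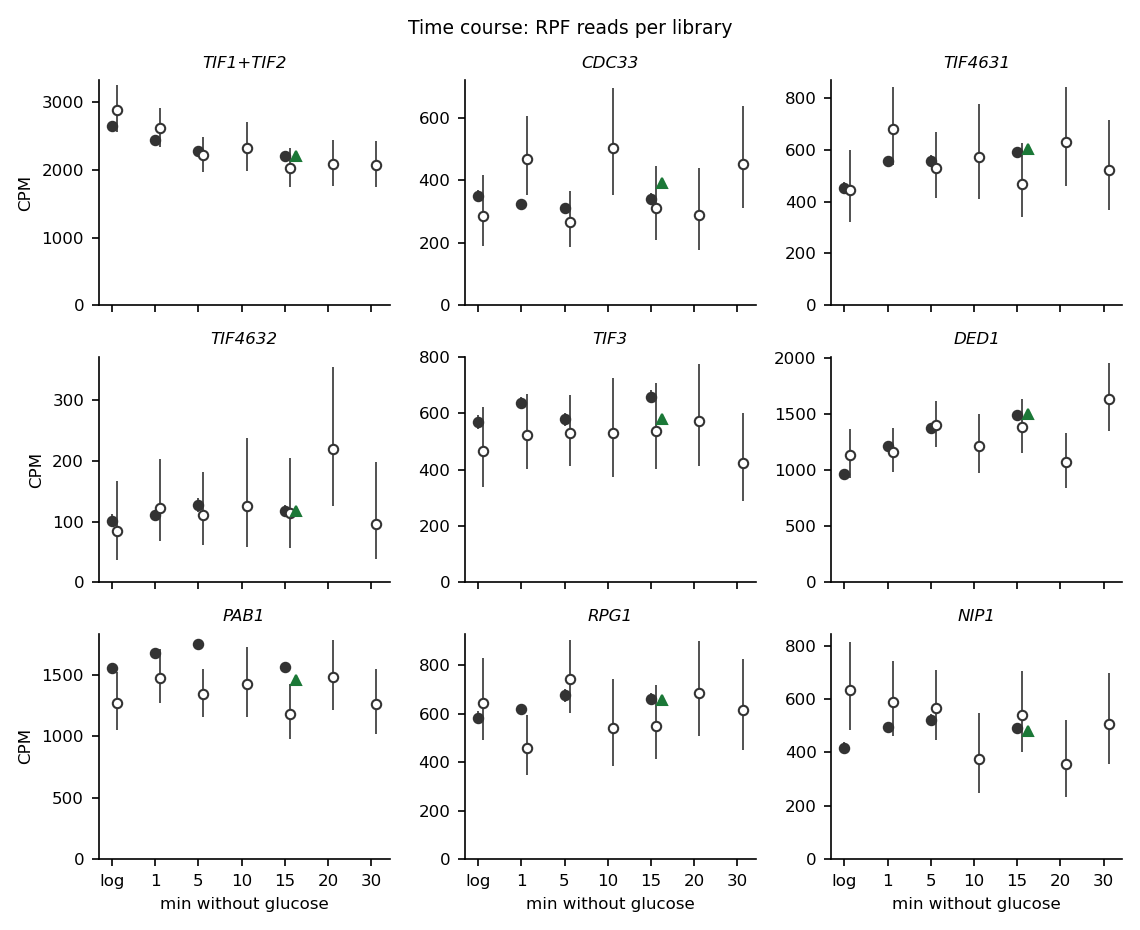
CPM of TIF1 and TIF2 summed and of the 8 other members against minutes of starvation, with filled points for deep libraries, open points for shallow ones, a triangle for the matched pretreated 15 min library and exact 95% counting intervals. DED1 lies between 961 and 1131 CPM in log phase and between 1379 and 1486 CPM at 15 min, while shallow points have wide intervals.

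Polarity in the time course could be tested for 488 genes with over 25 reads in every replicated library, among them 9 members. TIF4632 had too few reads. In log phase the library medians were 0.0481 and 0.0556, above those of the pretreated log libraries. At 15 min the reads of Pab1 and both eIF3 mRNAs lay nearer the 3′ end than in log phase. PAB1 scored 0.261 and 0.249 at 15 min, against 0.00492 and 0.0590 in log phase. NIP1 scored 0.173 and 0.210 at 15 min, against 0.0344 and -0.0258 in log phase. RPG1 scored 0.210 and 0.192 at 15 min, against 0.0242 and 0.0682 in log phase. None of the 3 overlapped between the groups. How many of the 488 genes did the same was not counted, and the library medians at 15 min were 0.112 and 0.130.

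Without a block, limma called 0 of 9 members at each time. Of all genes 7.17% rose at 1 min and 4.30% at 5 min. At 15 min 0 (0%) of 488 genes were called, and 126 genes and 3 members had an unadjusted p under 0.05. With the replicate block, limma gave increases at 15 min of 0.22 for PAB1 (SE 0.04, adjusted p = 0.0038), 0.19 for NIP1 (SE 0.05, adjusted p = 0.0155) and 0.15 for RPG1 (SE 0.04, adjusted p = 0.0214), where 23.0% of genes rose. Their adjusted p without the block were 0.0667, 0.0667 and 0.0744 (limma). Over the 115 genes with over 100 reads in every library, 3 of them members, the unblocked fit did call PAB1 at 15 min (0.22, SE 0.05, adjusted p = 0.0219, limma). At 1 min CDC33 rose by 0.14 (SE 0.05, adjusted p = 0.0403, limma with block, 35.2% of genes rising). It scored 0.252 and 0.226 at 1 min, against 0.119 and 0.0724 in log phase, and 0.0991 and 0.00726 at 15 min. Those scores rest on 1994 and 57 reads at 1 min, 1228 and 27 in log phase and 1719 and 30 at 15 min. The fit gave all libraries the same weight.

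At 5 min TIF2 rose by 0.12 (SE 0.04, adjusted p = 0.0342, limma with block, 36.3% of genes rising), but the summed copies did not pass (0.04, adjusted p = 0.293). The sum scored 0.316 and 0.299 at 5 min, against 0.268 and 0.260 in log phase. TIF1 was high throughout, from 0.316 to 0.440 over log phase, 1, 5 and 15 min. TIF4631, TIF3 and DED1 passed in no fit, with changes of 0.09, 0.09 and 0.06 at 15 min. With the pool as block limma called none of the members, with adjusted p of 0.0739 for PAB1, 0.0761 for NIP1 and 0.0875 for RPG1 at 15 min. Median changes were 0.08, 0.08 and 0.09 over the members at 1, 5 and 15 min, beside 0.09, 0.08 and 0.06 over all genes. Less each library's median, limma called no member at any time.

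The 15 min effect in pretreated cells was then set against that in cells without pretreatment. In counts, edgeR without a block called no member and 0.614% of genes (DESeq2 called 50 genes and 0 members). CDC33 had the largest difference among the members, -1.30 on the log2 scale (SE 0.40, adjusted p = 0.243, edgeR). With the replicate block it was also -1.30 and passed (SE 0.29, adjusted p = 0.0222), where edgeR called 1.25% of genes lower and 3.16% higher. With the pool as block its adjusted p was 0.226 (edgeR). Mean CDC33 levels at 15 min were 268 CPM in pretreated cells and 326 CPM in the time course. In log phase they lay further apart, at 624 and 317 CPM.

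In polarity, limma without a block called 0 of 9 members and 2.45% of genes higher. With the block RPG1 had a shift that was larger by 0.22 in pretreated cells (SE 0.08, adjusted p = 0.0374, limma), where 30.1% of genes were higher. With the pool as block its adjusted p was 0.0951, and without a block it passed only when the second pretreated 15 min library was left out (0.27, adjusted p = 0.0469, limma). Mean RPG1 scores at 15 min were 0.219 in pretreated cells and 0.201 in the time course. In log phase they lay further apart, at -0.158 and 0.0462. The experiments also differ in library construction and depth, so that pretreatment and preparation cannot be told apart here.

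The matched 15 min library with pretreatment came from the time course's own preparation. It was set against both 15 min libraries without pretreatment pooled, and 0 of 10 members passed a 2-fold difference, as did 0.204% of genes lower and 0.306% higher. The log2 ratios of the members ran from -0.18 (TIF3) to 0.20 (CDC33, 95% counting interval 0.11 to 0.28). CDC33 had 391 CPM in the matched library against 341 and 311 CPM without pretreatment. RPG1 scored 0.179 in polarity in the matched library, against 0.210 and 0.192, and PAB1 0.221, against 0.261 and 0.249. The matched condition is a single library, with no test of a difference between conditions.

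The later and intermediate times had 1 shallow library each and were set against both time course log libraries pooled. None of the 10 members passed 2-fold at 10 min, where 9.24% of genes with at least 200 reads were lower and 3.26% higher. Their log2 ratios there ran from -0.33 (TIF1) to 0.53 (CDC33). At 20 min TIF4632 alone did, with a log2 ratio of 1.12 (95% counting interval 0.30 to 1.84) on 16 reads, where 7.56% were lower and 8.24% higher. Under another scaling of the libraries (TMM) the median gene at 20 min moved to -0.23 on the log2 scale, against 0.05, the split became 12.4% lower and 4.33% higher, and no member passed. At 30 min 0 members passed, with 13.7% of genes lower and 4.82% higher. DED1 had the largest log2 ratio of the members there, 0.76 (interval 0.48 to 1.02), with 1631 CPM on 119 reads. TIF1 and TIF2 summed had 2325, 2080 and 2070 CPM at 10, 20 and 30 min, each below both log libraries.

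Over days in YPD, most members took a smaller share of protected reads than in log phase. These comparisons have 1 library a stage and no replicate check. Ratios were read for genes with at least 200 reads in both libraries together, which left 8 members at 1 day and 7 at 5 days. CDC33 had 607 CPM in log phase, 144 CPM at 1 day and 94.4 CPM at 5 days. PAB1 had 1697 CPM in log phase, 800 CPM at 1 day and 678 CPM at 5 days. RPG1 had 782 CPM in log phase, 326 CPM at 1 day and 142 CPM at 5 days. DED1 had 1030 CPM in log phase, 575 CPM at 1 day and 802 CPM at 5 days, and was the member that kept most of its level at 5 days.

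At 1 day against log phase, 4 of 8 members passed 2-fold and were lower: CDC33 (log2 -2.07, 95% counting interval -2.43 to -1.73), TIF3 (-2.0), RPG1 (-1.26) and PAB1 (-1.08). Of all genes tested 35.0% were lower and 29.2% higher, and the median log2 ratio was -1.04 over the members and -0.19 over all genes. TMM scaling moved that median to -0.35 and put 6 of 8 members past 2-fold lower, beside 38.4% of all genes lower and 27.7% higher. At 5 days against log phase, 6 of 7 members were lower, as were 66.4% of all genes, with 18.9% higher. They were CDC33 (-2.69), RPG1 (-2.47), TIF4631 (-2.32), TIF3 (-1.90), NIP1 (-1.77) and PAB1 (-1.32), all log2 ratios. DED1 was the exception with -0.36 (interval -0.64 to -0.09). The medians were -1.90 over the members and -1.77 over all genes. TMM scaling moved the latter to -1.39 and left 5 of 7 members lower, beside 59.3% of all genes lower and 20.9% higher.

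Between the late stages the scaling set the direction. At 5 days against 1 day, RPG1 (log2 -1.21) and NIP1 (-1.07) were lower, 2 of the 4 members tested, with 35.0% of genes lower and 18.9% higher. Under TMM the split was 21.2% lower and 28.9% higher, the median gene moved to 0.06 against -0.48, no member was lower and DED1 was higher, while PAB1 passed 2-fold under neither scaling. TIF1 and TIF2 summed had 417 CPM in log phase, 177 CPM at 1 day and 142 CPM at 5 days. Their log2 ratio was -1.24 at 1 day (interval -1.58 to -0.90) and -1.56 at 5 days (interval -2.23 to -0.95).

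In YPD polarity the median gene scored 0.0171 in log phase, 0.176 at 1 day and -0.0137 at 5 days. CDC33 scored 0.453 at 1 day (83 reads), against 0.0292 in log phase, the 1 day score being the highest of the 8 members other than the eIF4A genes. RPG1 scored -0.0314 at 1 day, against -0.0889 in log phase, both below the median gene. Only DED1 (136 reads), PAB1 (115 reads) and NIP1 (38 reads) had over 25 reads at 5 days, with scores of -0.0325, -0.0713 and 0.0726.

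**Figure D5:**
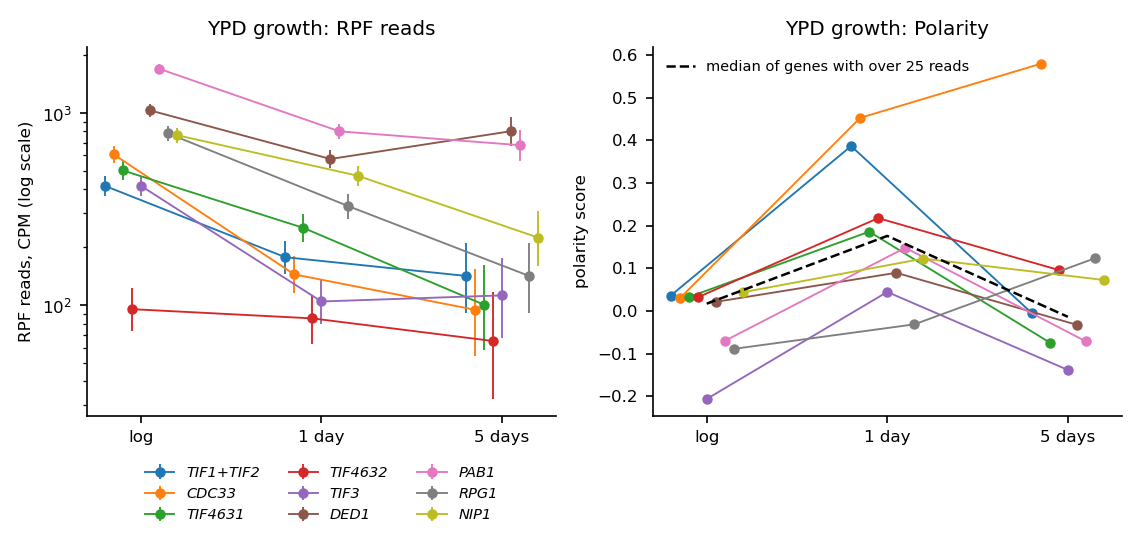
CPM on a log axis with 95% counting intervals and polarity score of each member at log phase, 1 day and 5 days in YPD, 1 library each, with dashed lines at the library's median polarity. CDC33 goes from 607 CPM in log phase to 94.4 CPM at 5 days, and DED1 from 1030 CPM in log phase to 802 CPM at 5 days. CDC33 stands at 0.453 in polarity at 1 day.

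A list of 15 other initiation genes gave a wider view of the pathway. In pretreated counts, edgeR called 2 of 15 higher and 1 lower at 15 min, beside 7.72% and 4.93% of all genes. The Ded1 paralog DBP1 rose by 1.41 on the log2 scale (SE 0.29, adjusted p = 0.0296) and the eIF4E-binding protein gene EAP1 by 1.16 (SE 0.25, adjusted p = 0.0350, edgeR). SUI1, which encodes eIF1, fell by 1.44 (SE 0.35, adjusted p = 0.0453, edgeR). With the block, DBP1 and EAP1 were higher and SUI1, TIF11 (eIF1A), CAF20 (another eIF4E-binding protein), TIF5 (eIF5) and HCR1 (the loosely bound eIF3 subunit j) lower. Without the first log or the second 15 min library none of the 15 was called, and without the second log library none was higher. The eIF4E gene CDC33 and the gene of its binding protein EAP1 thus moved in opposite directions in pretreated cells. CAF20 moved the same way as CDC33 (log2 -0.81, SE 0.28, edgeR) and passed only with the block (adjusted p = 0.0998 without and 0.0215 with it, edgeR). In time course counts neither CDC33 nor EAP1 was called with or without the replicate block.

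In pretreated polarity 8 of these 15 rose, led by the eIF3b gene PRT1 (0.26, adjusted p = 0.0117), PBP1 (0.24, 0.0165), SBP1 (0.23, 0.0180) and SCD6 (0.22, 0.0193, limma). Of all genes 41.5% rose, and with either log library left out none of the 15 was called. In the time course, blocked edgeR fits called FUN12 (eIF5B, log2 0.67, SE 0.14, adjusted p = 8.3e-05) and SBP1 (0.59, adjusted p = 0.00706) higher at 15 min, where 1.66% of genes rose. Without the block the adjusted p of each was 1.0, and with the pool as block none of the 15 was called. In blocked polarity, TIF34 (eIF3i) rose at 1 min (0.20, adjusted p = 0.0189) and 5 min (0.23, adjusted p = 0.0120, limma), the only 1 of 4 tested to do so, beside 35.2% and 36.3% of all genes. Without the block its adjusted p were 0.0642 and 0.0622 (limma). For the difference between experiments, SUI1 (-1.57, adjusted p = 0.0139), TIF5 (-1.19, adjusted p = 0.0341) and TIF11 (-1.26, adjusted p = 0.0363) passed in blocked edgeR fits, beside 1.25% of genes lower. Without the block their adjusted p were 0.231, 0.187 and 0.278 (edgeR), and with the pool as block none passed.

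Across the 12 time course libraries the members varied together only in part. Among 45 pairs, Pearson's r of log2(CPM + 1) was highest for TIF3 and PAB1 (0.715), was 0.640 for the eIF4G paralogs and was lowest for RPG1 and CDC33 (-0.685). Of 354 genes with over 25 reads in each library, RNR4 (r = 0.768), SED1 (0.764), RNR2 (0.749), DED81 (0.728) and RPP0 (0.704) had the profiles most like the members' mean. The members did not have to meet that minimum, and TIF4632 had 7 to 16 reads in the shallow libraries. These correlations are a description over libraries that share time points and 2 depths.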

How the data were processed

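Ribosome-protected fragments were measured in 19 libraries, and RNA-seq and glucose readdition samples were not analysed here. The submitters' processing notes name Cutadapt, Bowtie, HTSeq and build R64 for all samples. The methods give the steps for libraries without pretreatment: the authors trimmed reads, removed noncoding RNA, aligned the rest, removed duplicate molecules by molecular identifier and counted genes. For pretreated libraries trimming and alignment are only referred to an earlier description, not used here. The sources used here give no version for these tools. The deposited counts per gene are whole reads, and the deposited polarity score of each gene was made by the authors' scripts. Libraries were mapped to groups through the labels and a sample key in the deposited table. Genes not listed in a library were set to 0 reads, and a few lines emptied for this work were left out.

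Counts were tested with edgeR 4.0.16 (quasi-likelihood, TMM, filterByExpr) and DESeq2 1.42.0, and polarity with limma 3.58.1 (R 4.3.3) over genes with over 25 reads in every library compared, all with Benjamini-Hochberg adjustment over all genes and a threshold of 0.05. The code was tested on simulated data. Single libraries were compared as CPM with exact 95% counting intervals. Where a summed score is given for TIF1 and TIF2, it is the mean of both scores weighted by reads. Python 3.11.15 was used for the other steps.

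The rule for named genes takes all 10 members in every comparison (a member with no value of its own stands in the counts and ranges), the sum of TIF1 and TIF2, up to 4 of the other initiation genes by smallest adjusted p, and the 5 genes most like the members' mean profile. Other genes of that list are named where a count of them is given. Members and lists were chosen with earlier results of these data known. A portion of each culture was starved while the rest stayed in log phase, and the deviations of libraries with the same number correlated between 0.417 and 0.923 in the time course and by 0.449 (counts) and 0.271 (polarity) in pretreated cells. All second replicates of the time course were shallow, so there the correlations cannot tell pairing by culture from depth. The numbers were taken to pair the libraries, which is an assumption in the time course, and fits with and without the replicate block are given.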

Additional observations from a re-analysis of the deposited data

Results flagged for a closer look

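The 15 min effect differed between the experiments for 1 member in counts and 1 in polarity. In each case this was in a test of the difference itself and only with the replicate block. Over all genes those blocked fits called 1.25% lower and 3.16% higher in counts, and 30.1% higher in polarity. CDC33 had a difference in log2 count change of -1.30 (pretreated minus not pretreated, edgeR, adjusted p = 0.0222). The pretreated change was -1.21 and that in the time course was 0.05 with the block. RPG1 had a difference in polarity change of 0.221 (limma, adjusted p = 0.0374), from 0.38 in pretreated cells and 0.15 in the time course. With all libraries, neither passed without the block or with the pool as block. Without the second pretreated 15 min library RPG1 passed in the unblocked fit (0.27, adjusted p = 0.0469, limma). For both genes the mean values of the experiments lay further apart in log phase than at 15 min. Whether the pretreatment, the library preparation or the depth goes with these differences cannot be told apart in this design.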

How the results depend on the processing

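Numbers of genes called changed with the fit. With the replicate block, which treats libraries of the same number as pairs, pretreated counts gave 1592 genes, time course counts 160, 234 and 291 at 1, 5 and 15 min, time course polarity 172, 177 and 116, and the differences between experiments 237 in counts and 148 in polarity. With the pool as block, 15 min counts, 5 min polarity and both differences gave 0. DESeq2 gave 22, 59 and 48 genes in time course counts and 50 for their difference, and no filter on low counts gave 3 at 1 min, 9 at 5 min and 56 for the difference.

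For polarity over 10 reads, 1 min gave 10 genes and 5 min and the difference 0. Over 100 reads, 15 min gave 12, with PAB1 among them, and the difference 40. Less the library median, pretreated polarity, 1 min, 5 min and the difference gave 0 and 15 min gave 1, and the pretreated changes of CDC33 and TIF4631 turned to -0.031 and -0.0075. Genes at least 2-fold lower with at least 50 reads came to 18.3%, 12% and 22.6% at 10, 20 and 30 min. Under TMM scaling they came to 12.4% at 20 min and 21.2% at 5 days against 1 day, with 0 members lower.

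Leaving out 1 library at a time gave 166 to 758 genes in pretreated counts, 0 to 2333 in pretreated polarity, 0 to 5, 0 to 34 and 0 to 9 in time course counts at 1, 5 and 15 min, 0 to 28, 0 to 28 and 0 to 1 in time course polarity, and 0 to 66 and 0 to 128 in the differences. Of 420 alternative values for pairs of a member and a comparison called neither with nor without the replicate block, 30 had another sign than in the main fit. Fits with a library left out are not among these values. Summed scores of TIF1 and TIF2, and summed counts with the block, were added after seeing the data. The shallow libraries limit every time course result, since TIF4632 had 7 to 16 reads at 10, 20 and 30 min.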
